A study of Mus musculus with 31 samples.

Results

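The kidney transcripts described here are those encoded by the mitochondrial genome itself. They were taken as every row of the deposited table whose gene symbol begins with mt-, which gave 37 of 55487 genes: 13 protein-coding genes, 2 ribosomal RNA (rRNA) genes and 22 transfer RNA (tRNA) genes. All 37 lie on chromosome M in the GENCODE M21 annotation of the mouse build GRCm38. After the filter on low counts, all 13 protein-coding genes, both rRNA genes and 1 tRNA gene, mt-Ts1, could be tested.

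Bulk RNA sequencing was done on whole kidneys of male mice of the B6 background. Their genotype was wild type (WT) or the Nbl1 state labelled HET; Nbl1 encodes a secreted protein that blocks bone morphogenetic protein signals, and the sources used here do not give the kind of allele. They were given cisplatin, a platinum drug that damages the kidney tubule, or phosphate-buffered saline (PBS) for 4 weeks from 8 weeks of age, and kidneys were taken 3 days after treatment at an age recorded as 11 weeks, a timing that does not add up. The sources used here give no dose, and the labels state an RNA integrity number over 8. There were 8 WT and 7 HET mice in the PBS arms and 8 of each genotype in the cisplatin arms, 31 libraries in all, each with its own animal number, and the sources used here do not say whether mice shared a litter or a treatment day.

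The mitochondrial genome is a small circular DNA that is copied into long transcripts from both strands, and tRNAs that lie between the other genes mark where those transcripts are cut. Its mRNAs encode core subunits of respiratory complexes I, III and IV and of the ATP synthase, while all other subunits, the RNA polymerase and the processing enzymes are encoded in the nucleus and imported. In the kidney, mitochondria are most plentiful in the proximal tubule and the thick ascending limb, where they power the uptake of filtered solutes.

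Several of these genes cannot be read from their own rows alone, because the nuclear genome holds near-identical copies of them. A search of the GENCODE M21 transcripts found 17 annotated pseudogenes with at least 90% identity to a mitochondrial mRNA over at least 100 bases. A run of 7 of them, with at least 99% identity, lies on the minus strand of chromosome 1 between bases 24611535 and 24616197 of GRCm38. A stretch of mt-Co2, which encodes subunit 2 of cytochrome c oxidase, shows what such a copy means for read assignment. It is set beside its chromosome 1 copy Gm28661 and a more diverged copy, Gm13341. Positions are chrM:7457-7516 (plus strand), chr1:24615062-24615121 (minus strand) and chr2:22587471-22587530 (minus strand), and capitals mark the bases at which the sequences shown are not all the same.
mt-Co2: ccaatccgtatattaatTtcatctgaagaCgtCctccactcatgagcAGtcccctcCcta
Gm28661: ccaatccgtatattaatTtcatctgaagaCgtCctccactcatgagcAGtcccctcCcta
Gm13341: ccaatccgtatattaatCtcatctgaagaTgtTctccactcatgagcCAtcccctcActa
Over its 681 aligned bases Gm28661 has the same letters as mt-Co2, whereas Gm13341 differs at 6 of the 60 bases shown. That stretch was chosen as the gap-free one with most differences from Gm13341, which has 16 mismatches in its whole alignment. Gm28661 held 7730509 counts over all libraries and Gm13341 held 1367. Counts did not follow identity in every pair. Gm28439, identical to mt-Nd4 over 876 bases, held 0 counts, and Gm29216, with 99.793% identity to mt-Co1, held 10689.

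A second pair shows a copy that differs by 1 base. The start of mt-Nd3, which encodes a membrane subunit of complex I (chrM:9459-9518, plus strand), and that of its copy Gm28438 (chr1:24613060-24613119, minus strand) differ by T3C, counted from 1 at the first base of mt-Nd3. The differing base is in capitals.
mt-Nd3: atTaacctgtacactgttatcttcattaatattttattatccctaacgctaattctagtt
Gm28438: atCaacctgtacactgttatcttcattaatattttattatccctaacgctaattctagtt
That single substitution is the only one over the 345 bases aligned. Reads that do not cover it could come from either place.

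The deposited counts were split very unevenly between a mitochondrial row and its copy. In WT PBS the mt-Co2 row held 2.47% ± 0.57 (SD, n = 8) of the counts summed over mt-Co2 and Gm28661. The mt-Co3 row, for subunit 3 of the same oxidase, held 5.85% ± 0.75 (SD, n = 8) of the sum with Gm28437, and the mt-Nd4l row held 27.5% ± 2.2 (SD, n = 8) of the sum with Gm10222. The shares were larger for mt-Atp6, at 64.6% ± 5.5 (SD, n = 8) with Gm10925, and for mt-Nd3, at 83.4% ± 6.2 (SD, n = 8) with Gm28438. For mt-Co1 and mt-Nd4, whose copies Gm29216 and Gm28439 cover only a stretch of the gene, 99.96% and 100% of the counts were in the mitochondrial row. Gm28439 held 0 counts in every library. The levels printed for mt-Co2, mt-Co3 and mt-Nd4l therefore describe a small part of the reads with that sequence, and values summed with the copy are given beside the main results.

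**Figure D1:**
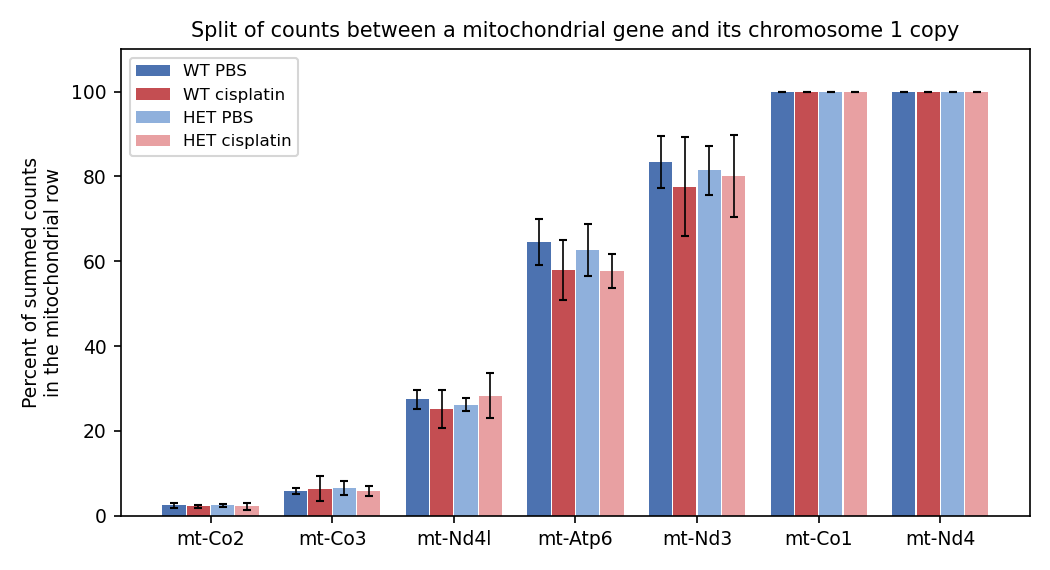
Mean percent of the counts summed over a mitochondrial gene and its chromosome 1 copy that stand in the mitochondrial row, for 7 genes and 4 groups. Bars are group means and whiskers the SD over 7 or 8 libraries; mt-Co2 and mt-Co3 stay below 10% on average in every group, and mt-Co1 and mt-Nd4 are at or near 100%.

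Some members also share bases with each other. mt-Atp8 and mt-Atp6 encode subunits of the ATP synthase and overlap by 43 bases, the longest overlap of the genome. The end of mt-Atp8 (chrM:7915-7969) and the start of mt-Atp6 (chrM:7927-7981) are shown with the shared bases in capitals.
mt-Atp8 end: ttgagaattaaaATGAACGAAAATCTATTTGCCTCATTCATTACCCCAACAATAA
mt-Atp6 start: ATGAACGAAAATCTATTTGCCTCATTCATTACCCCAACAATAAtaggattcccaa
mt-Nd4l and mt-Nd4 overlap by 7 bases, and mt-Nd5 and mt-Nd6 by 14 bases on opposite strands. The sources used here do not give the strand setting of the counts, so reads of mt-Nd6 cannot be told apart from reads of the opposite strand there. The same holds for the only tRNA gene that passed the filter, mt-Ts1, a serine tRNA gene on the minus strand (chrM:6870-6938), whose last 3 bases, in capitals, lie opposite the end of mt-Co1.
mt-Ts1: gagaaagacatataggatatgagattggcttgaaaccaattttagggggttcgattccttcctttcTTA

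In units of 1000000 counts, library totals ran from 29.23 to 37.3 under PBS and from 24.65 to 31.92 under cisplatin. Kidney markers were present throughout: none of the 14 proximal tubule markers was at 0 in any group. Nbl1 had a median of 6.37 CPM (counts per 1000000, scaled by TMM factors; range 3.71 to 7.90) in WT PBS and 3.64 (0.106 to 4.198) in HET PBS, while after cisplatin the medians were 20.96 (10.7 to 26.2) in WT and 8.69 (0.861 to 13.9) in HET. In an earlier analysis of these data the Nbl1 or Htr6 level of the libraries labelled HET PBS 1 and 6, HET cisplatin 3 and 4 and WT PBS 6 went against the genotype label. Genotype comparisons below use the labels as given, and without these 5 libraries there was again no genotype call on a mitochondrial gene. The block of animal numbers that holds all 8 HET cisplatin animals holds 4 of 8 WT PBS, 6 of 8 WT cisplatin and 4 of 7 HET PBS animals, so number block and group are partly confounded.

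The first question is how much of each kidney library the mitochondrial genes take. In WT PBS the 13 mRNA genes took 8.03% of all counts in the lowest library, 8.34% at the median and 8.86% in the highest. In WT cisplatin these shares were 2.48%, 3.21% and 4.96%. In HET mice they were 7.81%, 8.39% and 8.50% under PBS and 3.09%, 3.79% and 5.09% under cisplatin. No cisplatin library of either genotype reached the share of any PBS library. The means were 8.37% ± 0.26 (SD, n = 8) and 3.41% ± 0.78 (SD, n = 8) in WT, and 8.31% ± 0.23 (SD, n = 7) and 3.84% ± 0.66 (SD, n = 8) in HET. The copies on chromosome 1 took a further 2.58% to 2.81% of counts in WT PBS, 0.817% to 1.58% after cisplatin in WT, 2.54% to 2.79% in HET PBS and 1.02% to 1.67% after cisplatin in HET. The highest cisplatin libraries of the 2 genotypes, WT cisplatin 6 and HET cisplatin 6, were also those with the lowest share of Malat1, a nuclear noncoding RNA, at 2.33% and 2.38% of counts, and with the highest Lrp2, at 2871 and 2684 CPM.

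**Figure D2:**
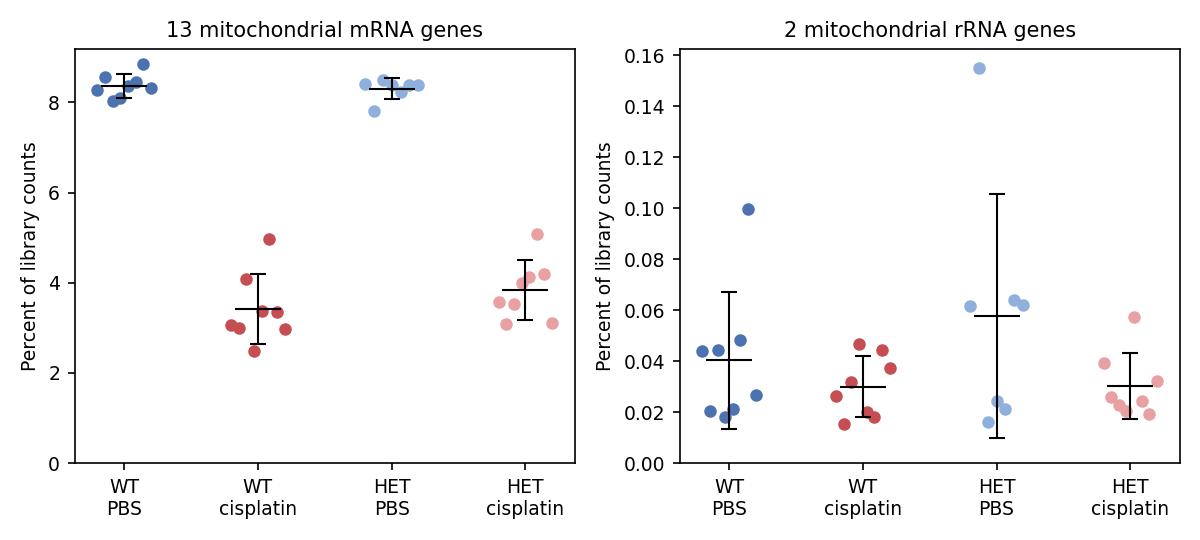
Percent of each library's counts in the 13 mitochondrial mRNA genes (left) and the 2 rRNA genes (right) by group. Points are libraries, the horizontal mark is the group mean and whiskers the SD; the mRNA shares of PBS libraries lie at 7.81% or above and those of cisplatin libraries at 5.09% or below, while the rRNA shares overlap and HET PBS 2 stands highest.

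In the authors' TPM (transcripts per 1000000), the mRNAs differed widely in level. Values are summed with the copy where there is one. The order in TPM is not that of counts per annotated base. In WT PBS mt-Atp8, of 204 bases, had a mean of 825 CPM, and mt-Co1, of 1545 bases, one of 32635 CPM. The high places of the short genes mt-Atp8, mt-Nd3 and mt-Nd4l below therefore hold for the deposited TPM only. In WT PBS the highest was mt-Atp8 at 22171 ± 964 TPM (SD, n = 8), followed by mt-Co2 with its copy at 17525 ± 617 and mt-Co3 with its copy at 15853 ± 347. mt-Co1, which encodes the catalytic subunit of cytochrome c oxidase, came next at 15067 ± 352 with its copy, and the ranges of mt-Co3 and mt-Co1 overlapped. mt-Atp6 stood at 13166 ± 502, mt-Nd3 at 12031 ± 641 and mt-Nd4l at 11280 ± 569, each with its copy. Among these the range of mt-Nd3 overlapped with those of both others. Below them were mt-Cytb, the cytochrome b of complex III, at 9509 ± 458, mt-Nd1 at 7785 ± 227, mt-Nd4 at 6488 ± 228, mt-Nd2 at 4671 ± 178 and mt-Nd5 at 3956 ± 331. The ranges of these 5 did not overlap with each other. The lowest was mt-Nd6, the only mRNA on the minus strand, at 403 ± 58. Both rRNAs were lower still, at 123 ± 94 TPM for mt-Rnr1 and 139 ± 78 for mt-Rnr2, in libraries made, per the labels' protocols, with a kit for mRNA.

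The main comparison asks what cisplatin did to these transcripts in WT kidneys. All 13 mRNA genes fell, in a table in which 29.6% of the 19269 tested genes were lower at an adjusted p under 0.05 (edgeR quasi-likelihood F test, Benjamini-Hochberg over all tested genes). From the genes' own rows, their log2 fold changes ran from −2.30 to −0.43 with a median of −1.81. On the same rule 33.6% of tested genes were higher and 63.2% changed in either direction, while the median over all tested genes was 0.06 and 9.17% of them lay below −1. For 12 of the 13 every cisplatin library lay below every PBS library, which held for 17.4% of all tested genes; mt-Nd6 was the exception. The same 12 genes did so in HET mice.

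Complex I takes electrons from NADH, and 7 of its subunits are encoded here. mt-Nd4, a subunit of the proton-pumping membrane arm, had 11587 CPM in the lowest WT PBS library, 12436 at the median and 12764 in the highest, against 1588, 2375 and 4784 CPM under cisplatin. The groups were far apart, and the highest cisplatin value came from WT cisplatin 6. The log2 fold change was −2.19 (SE 0.16, adjusted p = 7.76e-13). mt-Nd3 went from 1819, 1959 and 2463 CPM to 230.4, 366 and 804 CPM, again without overlap, and had the largest log2 fold change of the members in WT, −2.30 (SE 0.21, adjusted p = 4.2e-11). Summed with Gm28438 it was −2.20 (SE 0.18, adjusted p = 6.2e-12).

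mt-Nd1, the subunit next to the quinone site, had the smallest estimate of the complex I genes on the plus strand. It had 8291, 9389 and 9612 CPM under PBS and 2433, 3359 and 4697 CPM under cisplatin in WT, a log2 fold change estimated at −1.41 (SE 0.12, adjusted p = 9.04e-12). The other membrane subunits mt-Nd2, mt-Nd4l and mt-Nd5 changed by −2.23, −2.19 and −1.96 on the log2 scale, all past the threshold. mt-Nd4l summed with Gm10222 changed by −2.06 (SE 0.16, adjusted p = 1.58e-12).

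mt-Cytb, the one subunit of complex III encoded here, had 13592 CPM in the lowest WT PBS library, 14400 at the median and 14816 in the highest. Under cisplatin it had 1988, 3004 and 5918 CPM, and WT cisplatin 6 was again highest. Its log2 fold change was −2.10 (SE 0.16, adjusted p = 1.93e-12).

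Complex IV passes electrons to oxygen, and its 3 subunits encoded here fell as well. mt-Co1 had 30052, 32685 and 35394 CPM in WT PBS and 10920, 12295 and 17336 CPM in WT cisplatin. No library overlapped, and the log2 fold change was −1.29 (SE 0.10, adjusted p = 2.05e-12). The mt-Co2 row had 237, 303 and 431 CPM under PBS and 65.6, 87.4 and 171 CPM under cisplatin, while with Gm28661 it had 12247, 12875 and 13155 CPM and 3415, 4064 and 5877 CPM. Both versions kept the groups apart. The fold change was −1.69 with an SE of 0.22 for the row alone (adjusted p = 5.01e-08) and −1.58 with an SE of 0.10 with the copy (adjusted p = 1.64e-14). mt-Co3 changed by −1.66 (SE 0.25, adjusted p = 8.72e-07) alone and by −1.76 (SE 0.13, adjusted p = 6.95e-13) with Gm28437.

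Both ATP synthase genes fell. mt-Atp8 had 767, 809 and 921 CPM under PBS and 218, 269 and 394 CPM under cisplatin in WT, a log2 fold change estimated at −1.55 (SE 0.11, adjusted p = 9.99e-14). mt-Atp6 had 5365, 6241 and 7054 CPM and then 1330.4, 1578 and 2460.4 CPM, a log2 fold change estimated at −1.81 (SE 0.12, adjusted p = 8.43e-14). Summed with Gm10925 the change of mt-Atp6 was smaller, −1.65 in WT (SE 0.11, adjusted p = 6.42e-14) and −1.51 in HET (SE 0.11, adjusted p = 1.01e-12). The mt-Atp6 row held on average 64.6% of the summed counts in WT PBS and 57.9% in WT cisplatin. Neither gene overlapped between the treatments.

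mt-Nd6, a complex I subunit read from the minus strand, stood apart from the other mRNAs. It had 152, 181 and 238 CPM in WT PBS and 120, 132 and 167 CPM in WT cisplatin, so the groups overlapped. Its log2 fold change was −0.43 in WT (SE 0.09, adjusted p = 9.51e-05) and, in HET mice, −0.26 (SE 0.09, adjusted p = 0.0159), but this fall depends on how libraries are scaled. With library totals in place of TMM factors, which moves the median of all genes from 0.06 to 0.45 in WT and 0.46 in HET, it was −0.03 (adjusted p = 0.698) in WT and 0.14 (adjusted p = 0.128) in HET. On log2(TPM + 1) with limma it was 0.012 (adjusted p = 0.906) and 0.21 (adjusted p = 0.0344). The other 12 mRNA genes fell past the threshold under every scaling and tool tried.

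HET kidneys were compared in the same way. All 13 mRNA genes fell, against 28.0% of all tested genes. From the genes' own rows, their log2 fold changes ran from −2.09 to −0.26 with a median of −1.78. That median is the value of the mt-Co3 row, and mt-Co3 summed with Gm28437 was at −1.61 (SE 0.13, adjusted p = 9.94e-12). Of all tested genes 59.0% changed in either direction. For 12 of the 13 every HET cisplatin library lay below every HET PBS library, which held for 14.9% of all tested genes. mt-Nd3 was again at the far end with −2.09 (SE 0.21, adjusted p = 5.63e-10), and mt-Co1 was, after mt-Nd6, the least reduced with −1.10 (SE 0.10, adjusted p = 1.33e-10). It had 30808, 33170 and 33826 CPM in HET PBS and 12060, 14778 and 21261 CPM in HET cisplatin, with HET cisplatin 6 highest.

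**Figure D3:**
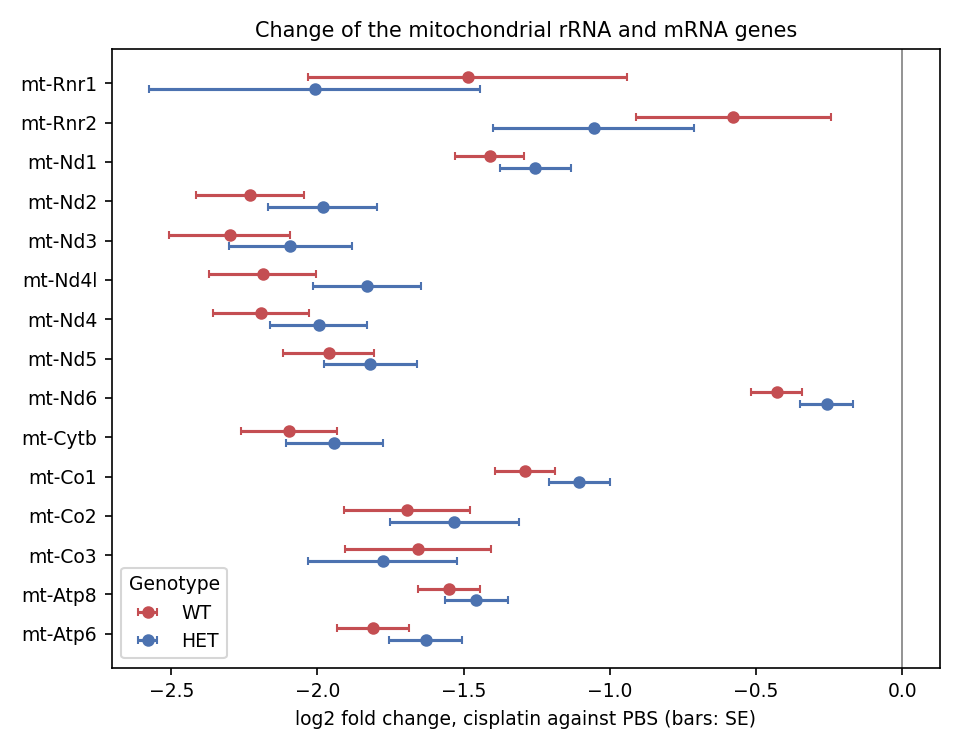
Log2 fold change of cisplatin against PBS for the 2 rRNA and 13 mRNA genes, from each gene's own row, in WT (8 against 8 libraries) and HET (8 against 7). Points are edgeR estimates and bars their SE; all lie below 0, mt-Nd6 closest to it at −0.43 and −0.26, and the rRNA genes have the widest bars.

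In bulk tissue, fewer cells of a type and less RNA per cell cannot be told apart. Other markers moved with these falls, though the collecting duct and podocyte lists were split. The counts in this paragraph are to be read against all tested genes. Of those, 29.6% were lower and 33.6% higher in WT. In HET 28.0% were lower, and 5982 of 19269 were higher. All 14 proximal tubule markers fell in both genotypes, and the range of their summed level was 38581 to 43328 CPM in WT PBS and 1751 to 8505 CPM with cisplatin. In HET these ranges were 39150 to 44428 CPM and 1586 to 7953 CPM. Of 7 thick ascending limb markers 6 fell and 1 rose in each genotype, and their sum ranged over 6700 to 7840 CPM under PBS and 1549 to 3820 CPM under cisplatin in WT, and over 6930 to 7543 CPM and 1075 to 4120 CPM in HET. All 5 distal convoluted tubule markers fell in both genotypes. The 6 injured tubule markers all rose, with sums of 507 to 752 CPM in WT PBS, and 5427 to 7125 CPM after cisplatin; the HET sums were 629.45 to 780 CPM and 2774 to 6990 CPM. All 6 erythrocyte markers fell, with sums of 334 to 1870 CPM in WT PBS and 3.02 to 44.3 CPM in WT cisplatin, and 361 to 796 CPM and 2.24 to 80.6 CPM in HET. All 6 endothelium markers fell, with sums of 413 to 475 CPM in WT PBS and 287 to 331 CPM in WT cisplatin, and 413 to 452 CPM and 288 to 343 CPM in HET. Of 6 fibroblast and mural cell markers 5 rose in each genotype, with sums of 208.5 to 312 CPM and 332 to 564 CPM in WT and 229 to 332 CPM and 230.3 to 679.5 CPM in HET. Of 6 macrophage markers those that rose numbered 5 in WT and 4 in HET, and 1 was lower in each. Among 8 collecting duct markers 2 were lower in each genotype, and 3 (WT) or 2 (HET) higher. The lower ones include Slc4a1, which is also on the erythrocyte list and so was counted in both. Median sums of the collecting duct markers under PBS and cisplatin were 379 and 440 CPM in WT and 383 and 430 CPM in HET. Among 5 podocyte markers 2 (WT) or 1 (HET) were lower and 2 higher. Here the median sums were 385 and 380 CPM, then 372 and 382 CPM. Of 5 brown and white fat markers 2 were higher in WT and 4 in HET. Their median sums were 17.4 and 50.7 CPM, then 23.1 and 66.8 CPM, with overlapping ranges. Of 4 nuclear-retained RNAs 2 rose in WT and 3 in HET. Malat1, one of them, took 1.43% to 1.82% of counts in WT PBS and 2.33% to 4.52% in WT cisplatin, and 1.45% to 1.80% and 2.38% to 4.25% in HET. It rose by 0.62 on the log2 scale in WT (SE 0.10, adjusted p = 2.05e-06) and by 0.47 in HET mice (SE 0.10, adjusted p = 0.000195). Adrenal cortex markers summed to 579.55 CPM in 1 HET cisplatin library and to at most 2.963 CPM in every PBS and WT cisplatin library. Their part in the mitochondrial result was not tested.

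Across the cisplatin libraries, mt-Co1 and the proximal tubule gene Lrp2, which encodes the endocytic receptor megalin, moved together. As lowest, median and highest, Lrp2 had 564, 1145 and 2871 CPM in WT cisplatin, while the HET cisplatin libraries gave 489.6, 1603 and 2684 CPM, against 6626 to 8005 CPM in WT PBS. Over log2 CPM the correlation was r = 0.894 in WT cisplatin (exact permutation p = 0.00104, adjusted over the 4 groups 0.00417, n = 8) with rho = 0.976 (exact permutation p = 0.000397, adjusted 0.00159). In HET cisplatin it was r = 0.742 (exact permutation p = 0.0117, adjusted 0.0234, n = 8) with rho = 0.905 (exact permutation p = 0.00456, adjusted 0.00913). All tests were two-sided.

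Without the 2 libraries farthest from the median of Lrp2, r was 0.844 in WT cisplatin and 0.882 in HET cisplatin. Among the 6 WT cisplatin animals in the number block of the HET cisplatin animals, r was 0.929 (exact permutation p = 0.00278). The HET cisplatin value rests in part on HET cisplatin 6: without it, r was 0.675 (exact permutation, adjusted p = 0.174), and with library totals as the scaling it was 0.664 (exact permutation, adjusted p = 0.0563). Under PBS r was −0.38 in WT (exact permutation p = 0.345, adjusted 0.46, n = 8) with rho = −0.048 (exact permutation p = 0.935, adjusted 0.963) and −0.078 in HET (exact permutation p = 0.902, adjusted 0.902, n = 7) with rho = −0.036 (exact permutation p = 0.963, adjusted 0.963). Leaving out the 2 farthest libraries gave −0.53 and −0.048, and only 4 animals of each PBS group are in that number block, too few for a value. Whether r differs between treatments was not tested.

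**Figure D4:**
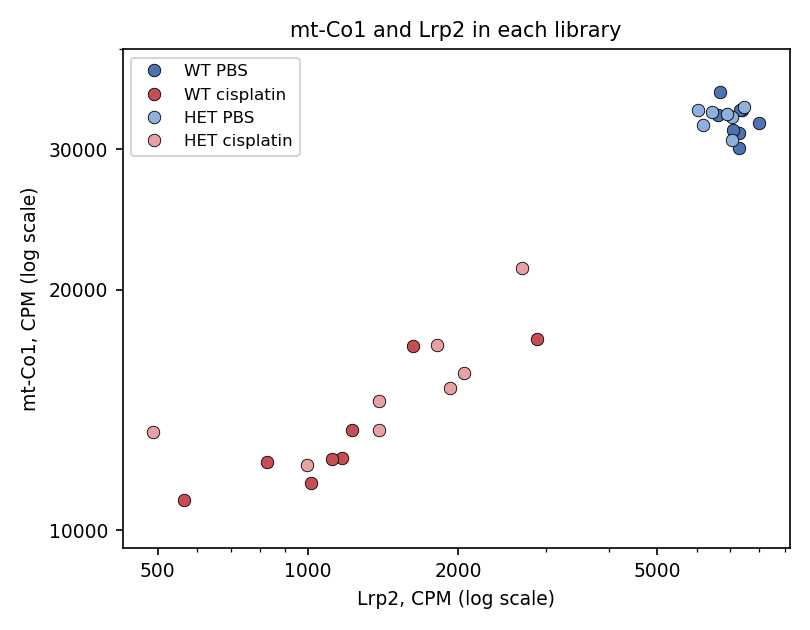
Level of mt-Co1 against that of Lrp2 in each of the 31 libraries, both in TMM-scaled CPM on log axes. Points are libraries coloured by group; the PBS libraries form 1 cluster at high levels, and within each cisplatin group libraries with more Lrp2 have more mt-Co1 (r = 0.894 and 0.742).

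The question of genotype gave no call on any mitochondrial gene. With edgeR, 0 of the 13 mRNA, 2 rRNA and 1 tRNA genes tested passed the threshold for HET against WT under PBS, under cisplatin or for the interaction, the difference between the 2 cisplatin responses, and 0 had an unadjusted p under 0.05. DESeq2 and limma voom also called 0. Over the whole table the calls were 0.00%, 0.00519% and 0.00% of tested genes. Nbl1, the gene whose genotype is compared, did not pass either. Its estimate was −1.23 under PBS (SE 0.46, adjusted p = 0.781) and −1.49 under cisplatin (SE 0.42, adjusted p = 0.874). The absence of calls is therefore weak evidence about genotype. The SEs under PBS also rest on a spread shared with the cisplatin libraries, so they do not describe the PBS libraries alone. Fitted on the PBS groups alone, 0 of 17818 tested genes were higher or lower in HET. From the genes' own rows the mRNA differences under PBS ran from −0.07 for mt-Nd6 (SE 0.09) to 0.18 for mt-Co3 (SE 0.25). Under cisplatin all 13 estimates were above 0, from 0.05 for mt-Co3 (SE 0.24) to 0.30 for mt-Nd4l (SE 0.18), and the closest to the threshold was mt-Co1, 0.20 (SE 0.10, unadjusted p = 0.0596, adjusted p = 0.886). The 13 genes share their libraries and so are not separate evidence. For the interaction the estimates ran from −0.12 for mt-Co3 (SE 0.35) to 0.36 for mt-Nd4l (SE 0.25). The ends of these ranges rest on rows that hold a small part of the reads. Summed with its copy, mt-Co3 was at 0.023 under PBS (SE 0.13), 0.17 under cisplatin (SE 0.13) and 0.15 for the interaction (SE 0.18), where the sign turned. mt-Nd4l with its copy was at 0.14 under cisplatin (SE 0.15) and 0.13 for the interaction (SE 0.22).

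The make-up of the mitochondrial mRNA pool also differed between treatments. Here each gene was tested against the sum of the 13 mRNA genes of the same library, a measure that does not depend on the scaling of nuclear genes. In WT 6 genes fell relative to that sum, namely mt-Nd2, mt-Nd3, mt-Nd4l, mt-Nd4, mt-Nd5 and mt-Cytb, and 3 rose, namely mt-Nd1, mt-Co1 and mt-Nd6. Of all tested genes 2.62% were lower, 93.2% higher and 95.8% either on this scale, which sets every nuclear gene against a sum that itself fell, so nothing is read from these shares. Adjusted p-values on this scale run over all these genes. With so many called, they stay close to the unadjusted ones. In HET the same 6 genes fell and the same 3 rose, with 2.48% of all tested genes lower, 92.7% higher and 95.2% either. Against the 12 mRNA genes without mt-Co1, mt-Nd5 no longer passed the threshold in WT (−0.038, adjusted p = 0.53) or HET (−0.049, adjusted p = 0.435), and neither did mt-Nd4l in HET (−0.063, adjusted p = 0.605). On the same reference mt-Atp8 rose by 0.42 in WT (adjusted p = 3.43e-05) and by 0.34 in HET mice (adjusted p = 0.00079). Against all 13 mRNA genes mt-Atp8 was at 0.14 in WT (SE 0.07, adjusted p = 0.0538), and it passed the threshold when any of several single libraries was left out, among them WT PBS 3 (0.18, adjusted p = 0.0203).

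mt-Nd6 moved most on this scale. Its counts were 1.46%, 1.71% and 2.57% of those of mt-Nd5, its neighbour on the opposite strand, in WT PBS, and 2.80%, 6.15% and 7.18% in WT cisplatin. In HET they were 1.38%, 1.71% and 2.09% under PBS and 4.21%, 4.87% and 7.02% under cisplatin. No cisplatin library overlapped with a PBS library of its genotype. Relative to the sum of mRNAs mt-Nd6 rose by 1.31 on the log2 scale in WT (SE 0.12, adjusted p = 1.25e-12) and by 1.27 in HET (SE 0.12, adjusted p = 1.05e-11).

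Grouped by complex and with the copies included, complex IV took 45.8% to 48.6% of the mitochondrial mRNA counts in WT PBS and 51.0% to 60.1% in WT cisplatin. Complex I took 32.3% to 34.4% and then 24.3% to 30.9%, and complex III 10.7% to 11.7% and then 6.90% to 10.2%. ATP synthase overlapped, with 7.89% to 8.61% and 7.96% to 8.93%. In HET mice complex IV took 46.7% to 47.6% under PBS and 53.0% to 59.8% under cisplatin, and complex I 32.9% to 33.9% and then 24.9% to 30.1%. The share of mt-Co1 went in WT from a mean of 25.8% ± 0.71 (SD, n = 8) to one of 34.1% ± 2.4 (SD, n = 8), and from its own row it rose against the sum by 0.41 on the log2 scale (SE 0.05, adjusted p = 3.82e-09).

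The copies alter the reading of mt-Co2 and mt-Co3 here. From its own row mt-Co2 was at −0.036 in WT (SE 0.17, adjusted p = 0.842) and mt-Co3 at 0.02 (SE 0.20, adjusted p = 0.925), neither past the threshold. Summed with the copies, and against a sum that includes them, mt-Co2 rose by 0.11 (SE 0.05, adjusted p = 0.0337) and mt-Co3 fell by 0.092 (SE 0.04, adjusted p = 0.0468) in WT. In HET mt-Co3 with its copy was −0.10 (SE 0.05, adjusted p = 0.032) and mt-Co2 0.07 (SE 0.05, adjusted p = 0.164). On that scale 7 genes fell in each genotype, while 4 rose in WT against 3 in HET.

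**Figure D5:**
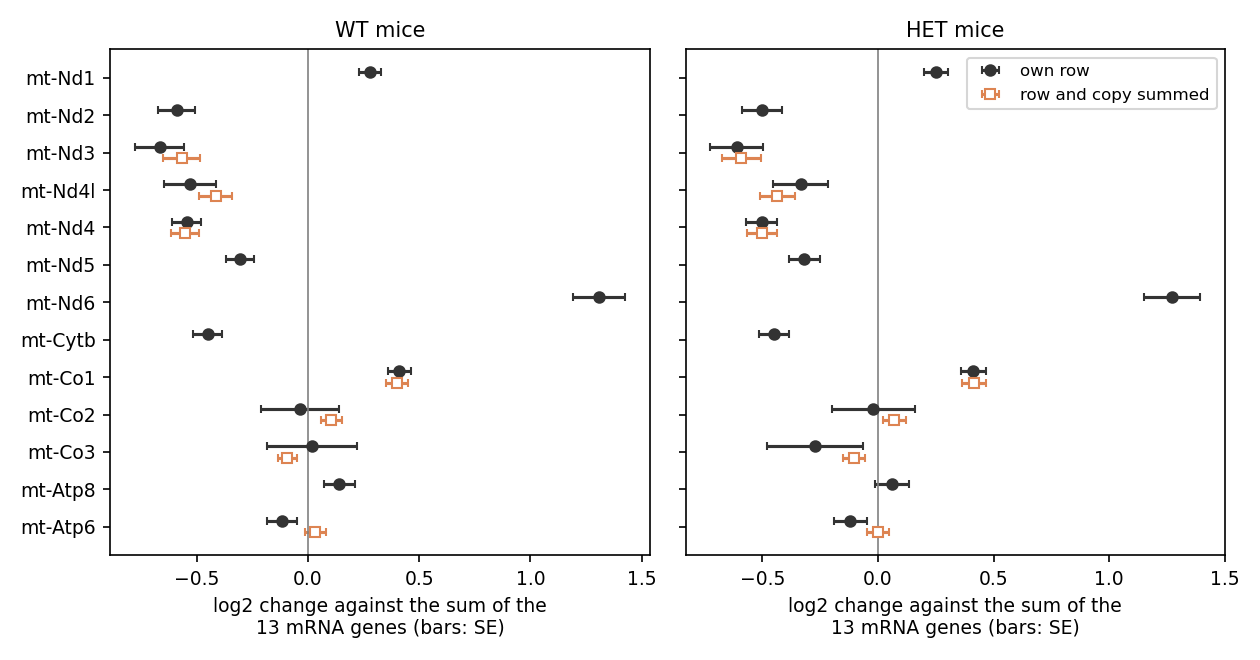
Log2 change under cisplatin of each mitochondrial mRNA against the sum of the 13 mRNA genes of the library, in WT (left) and HET (right). Filled points use each gene's own row, open squares the row summed with its chromosome 1 copy for the 7 genes that have one, and bars are SE; mt-Nd6 lies at 1.31 and 1.27 and mt-Nd3 at −0.67 and −0.61 from its own row.

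The rRNA genes behaved less evenly. mt-Rnr1, the small-subunit rRNA, had 38.8, 120 and 388 CPM in WT PBS and 15.8, 56.3 and 93.0 CPM in WT cisplatin, and its groups overlapped. It fell by 1.49 on the log2 scale (log2 fold change −1.49, SE 0.55, adjusted p = 0.0185), but without WT PBS 7 this was −1.11 (adjusted p = 0.073). mt-Rnr2, the large-subunit rRNA, had 174, 280 and 731 CPM and then 117, 203 and 335 CPM, a log2 change of −0.58 that did not pass the threshold (SE 0.33, adjusted p = 0.132). In HET mt-Rnr1 had 37.4, 264 and 671 CPM under PBS and 18.5, 44.0 and 157 CPM under cisplatin, with a log2 fold change estimated at −2.01 (SE 0.57, adjusted p = 0.00289). mt-Rnr2 had 153, 444 and 1091 CPM and then 153, 191 and 362 CPM, with −1.06 (SE 0.34, adjusted p = 0.0094), which without HET PBS 2 was −0.63 (adjusted p = 0.086). Whether the rRNA responses differ between genotypes was tested as the interaction, −0.52 (SE 0.77, adjusted p = 0.959) for mt-Rnr1 and −0.48 (SE 0.48, adjusted p = 0.941) for mt-Rnr2.

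The tRNA genes were barely counted. Of the 22, 7 had no count in any library, and the other 15 together gave median counts per library of 22 under PBS and 9 under cisplatin in WT, and of 12 and 9.5 in HET. mt-Ts1 held 220 counts over all libraries, at 0.166, 0.416 and 0.565 CPM in WT PBS and 0, 0.147 and 0.283 CPM in WT cisplatin. These groups overlapped, and its log2 fold change was −1.45 (SE 0.42, adjusted p = 0.00353). In HET mt-Ts1 had 0.127, 0.208 and 0.367 CPM under PBS and 0.0812, 0.135 and 0.416 CPM under cisplatin, a log2 fold change estimated at −0.24 (SE 0.44, adjusted p = 0.653), and the interaction was 1.21 (SE 0.61, adjusted p = 0.901). mt-Ts1 was near the limit of the low-count filter, which removed it when any of several single libraries was left out. These were HET cisplatin 3 and 4 and every WT PBS library but WT PBS 7. It thus passed the filter largely through WT PBS, the group where its median was highest. The WT comparison uses the same high values, so nothing is concluded from its fall there.

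Genes of the nucleus that build the same complexes were lower as well. The lists and their members were chosen with earlier results of these data known. In WT, 13 of 13 nuclear subunits of complex I fell (median log2 fold change −0.86), 4 of 4 of complex II, which has no mitochondrially encoded subunit (−1.08), 9 of 9 of complex III (−0.90), 10 of 10 of complex IV (−0.67) and 14 of 15 of the ATP synthase (−0.88). The counts were the same in HET, with medians of −0.78, −0.99, −0.75, −0.64 and −0.80. The background shares of 29.6% and 28.0% lower given above apply. The medians of the mitochondrially encoded mRNAs, −1.81 and −1.78 from their own rows, were lower than all of these medians, and that difference was not tested. They are the values of the mt-Atp6 row in WT and of the mt-Co3 row in HET. Summed with their copies, mt-Atp6 was at −1.65 in WT and mt-Co3 at −1.61 in HET, and no median over summed rows was taken.

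Ndufs1, an iron-sulfur subunit that carries electrons through complex I, changed most among the subunits named, with 291 ± 10 CPM (SD, n = 8) under PBS and 97.5 ± 27 (SD, n = 8) under cisplatin in WT (log2 fold change −1.58, SE 0.12, adjusted p = 4.16e-13). Sdha, the flavoprotein of complex II, changed by −1.28 (SE 0.09, adjusted p = 3.21e-13). Uqcrfs1, the Rieske protein of complex III, changed by −1.35 (SE 0.11, adjusted p = 1.77e-12). In complex IV, Cox7c changed by −0.86 (SE 0.08, adjusted p = 3.15e-11), and in the ATP synthase Atp5b, its catalytic beta subunit, changed by −1.16 (SE 0.09, adjusted p = 1.29e-12).

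The lists that follow are to be read against 29.6% of all tested genes lower and 33.6% higher in WT, and 28.0% lower in HET, where 5982 of 19269 were higher. Among 11 genes of mitochondrial transcription, 8 fell in WT and 7 in HET and none rose, with medians of −0.50 and −0.47. In WT the polymerase Polrmt had 31.8 ± 2.2 CPM (SD, n = 8) under PBS and 20.2 ± 1.9 (SD, n = 8) under cisplatin, −0.66 on the log2 scale (SE 0.07, adjusted p = 6.59e-10). Tfam, which packages mitochondrial DNA and opens its promoters, changed by −0.68 (SE 0.06, adjusted p = 5.17e-11), and Tfb2m, which helps the polymerase melt the promoter, by −0.84 (SE 0.07, adjusted p = 1.71e-12). Of 24 genes of RNA processing and stability, 20 fell in each genotype and none rose. Among them Grsf1, a protein of the RNA granules of mitochondria, changed by −0.99 in WT (SE 0.07, adjusted p = 1.57e-13) and Supv3l1, a helicase of RNA turnover, by −0.75 (SE 0.07, adjusted p = 2.89e-10).

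In the list for replication and nucleotide supply of mitochondrial DNA, 8 of 18 fell and 1 rose in each genotype, beside 29.6% (WT) and 28.0% (HET) of all tested genes lower. Twnk, the replicative helicase, changed by −0.69 in WT (SE 0.09, adjusted p = 1.19e-07) and Mgme1, a nuclease that trims replication ends, by −1.14 (SE 0.14, adjusted p = 3.65e-08). Of 16 genes that modify mitochondrial rRNA or tRNA, those that fell numbered 10 in WT and 9 in HET, and those that rose 1 and 2. Mto1, which modifies the wobble base of tRNAs, changed by −0.98 (SE 0.10, adjusted p = 3.08e-10) in WT. Of 13 regulators of mitochondrial biogenesis, 9 fell and 3 rose in each genotype. Esrrg, a nuclear receptor that drives respiratory genes, changed by −1.02 (SE 0.13, adjusted p = 3.19e-08) and Perm1 by −3.25 (SE 0.34, adjusted p = 8.76e-10) in WT.

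Genes often read as markers of mitochondrial mass numbered 11, of which WT kidneys had all 11 lower and HET kidneys 9, with medians of −0.48 and −0.35. Cs, the citrate synthase of the matrix, changed by −0.58 in WT (SE 0.06, adjusted p = 9.97e-10) and −0.49 in HET (SE 0.06, adjusted p = 5.95e-08). Hspd1, the matrix chaperonin, changed by −1.82 (SE 0.13, adjusted p = 3.22e-13) and −1.67 (SE 0.13, adjusted p = 4.19e-12). How these estimates differ from those of the mitochondrial mRNAs was not tested.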

How the data were processed

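Libraries were made from whole mouse kidney with an mRNA kit, per the labels' protocols, and processed with fastp, STAR and featureCounts on GRCm38/mm10, per the submitters' processing notes. The authors deposited expected counts, TPM and FPKM for 55487 genes in 31 libraries, 3 values per library, with no column of per-sample values left unused (0). Of the deposited counts 12.52% have decimals, the sources used here do not name the tool that made them, and they were rounded. The deposited FPKM are a constant multiple of the deposited TPM within 0.164% at TPM over 5 and were not used further. Levels in TPM are the deposited values. Levels in CPM are TMM-scaled.

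The quasi-likelihood F test of edgeR 4.0.16 was fitted in R 4.3.3 (TMM factors, filterByExpr, 4 group means, Benjamini-Hochberg over 19269 tested genes, threshold 0.05), tested on simulated data first. Unless another tool is named, each adjusted p is edgeR's. The edgeR p-values and SEs measure the spread between libraries, estimated for each gene as 1 value shared by all 4 groups. That spread was not equal in all groups. In WT mice the mt-Nd4 row averaged 12263 CPM with an SD of 453 under PBS. Under cisplatin it averaged 2682 CPM with an SD of 1002. Yet the genotype SE of mt-Nd4 was 0.163 under PBS and 0.158 under cisplatin. The exact permutation p-values of the correlations do not use this shared spread. Alternatives used limma 3.58.1, DESeq2 1.42.0, other scalings and filters, and left-out libraries. Groups follow the labels, and no pair of libraries had identical counts. The members and lists were chosen with earlier results of these data known. All mt- rows were named, with their near-identical copies and up to 3 genes per list with the smallest p in WT. Of the gene identifiers 55141 were in GENCODE M21, whose transcripts gave the sequences and coordinates. The files were taken to hold whole counts when the tests were planned. The few counts of the tRNA genes may include PCR duplicates, which without molecular identifiers are not independent molecules. Why these counts were low was not tested.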

Additional observations from a re-analysis of the deposited data

Results flagged for a closer look

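Libraries that stand apart in their group were looked for in 68 groups of values, by the gap to the nearest library divided by the range of the group, and 9 were found. For independent, normally distributed values, chance alone gives such a gap in about 1 of 20 groups. The 68 groups of values come from the same 31 libraries, so that rate does not carry over to the 9 found.

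In HET PBS the library HET PBS 2 was high for both rRNA genes. Its mt-Rnr1 level was 671 CPM against 273 CPM in the next library (gap 0.629 of the range), and its mt-Rnr2 level was 1091 CPM against 491 CPM (0.64). The same library was low for mt-Nd1, at 8484 CPM against 9186 CPM (0.672), and for the share of counts in the 13 mRNA genes, at 7.81% against 8.24% (0.628).

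WT PBS 7 was high for mt-Rnr2, at 731 CPM against 355 CPM (0.676), and for mt-Nd3, at 2463 CPM against 2102 CPM (0.561). WT PBS 3 was low for mt-Nd1, at 8291 CPM against 9106 CPM (0.617). HET cisplatin 5 was high for mt-Rnr2, at 362 CPM against 230.0 CPM (0.631). WT cisplatin 6 was high for mt-Nd4l, at 161 CPM against 104 CPM (0.533), from its own row; summed with its copy Gm10222, mt-Nd4l had 204 to 594 CPM in that group.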

How the results depend on the processing

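The count of mRNA genes that fell was 12 or 13 in both genotypes under every alternative, and no alternative gave a genotype or interaction call on a mitochondrial gene. The gene that moved was mt-Nd6. In WT it was 0.012 with limma on log2(TPM + 1). With library totals and with totals without mt- genes it was −0.03 and −0.11 in WT, neither past the threshold (edgeR adjusted p = 0.698 and 0.214). In HET it was 0.14 with library totals and 0.071 with totals without mt- genes. With limma on log2(TPM + 1) it was 0.21 in HET, where it made 1 mRNA gene higher. With upper quartile factors it was −0.19 in HET and no longer passed the threshold (edgeR adjusted p = 0.0535). These scalings shift the median of all genes. Under TMM 6466 genes were higher and 5705 lower in WT and 5982 and 5393 in HET, and with library totals 11828 and 2862 in WT and 11983 and 2404 in HET. The estimates of mt-Co1 and mt-Nd1 in HET were smaller on log2(TPM + 1), at −0.65 and −0.81.

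The number of rRNA genes lower in WT, 1, became 0 with library totals, totals without mt- genes, limma on log2(TPM + 1) and without HET PBS 2 and WT PBS 7, and ranged from 0 to 1 when 1 library was left out (0 without WT PBS 7). In HET 2 became 1 with library totals, totals without mt- genes, limma on log2(TPM + 1) and without the 5 libraries that go against their label, and ranged from 1 to 2 (1 without HET PBS 2). The number of tRNA genes lower in WT, 1, became 3 without a filter on low counts, 0 with the compared groups alone and 0 with limma on log2(TPM + 1), where mt-Ts1 is listed at 0 in every library, and ranged from 0 to 1 without 1 library. The cause of these changes was not tested.

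With the copies included the mRNA share was 11.06% in WT PBS, 4.536% in WT cisplatin, 11.0% in HET PBS and 5.075% in HET cisplatin, and as a share of summed TPM it was 9.29% in WT PBS and 9.22% in HET PBS. In the make-up with copies summed mt-Co2 was 0.11 and mt-Co3 −0.092 in WT. The correlation of mt-Co1 with Lrp2 in HET cisplatin was 0.664 with library totals and ranged from 0.675 to 0.922 without 1 library. Summing the copies, adding them to the share, leaving out HET PBS 2 with WT PBS 7 or WT cisplatin 6 with HET cisplatin 6, and all alternatives of the correlation were chosen after seeing the data. No paired analysis was possible because the replicate numbers were given in accession order and pair no animals. The tRNA genes had only 2 to 33 counts per library, and the cause of this was not tested.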

Other observations

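The 2 rRNA genes are cut from the same strand of the genome and lie next to each other apart from 1 tRNA gene, mt-Tv. There were 1.64 to 4.51 mt-Rnr2 counts per mt-Rnr1 count in WT PBS, with a median of 2.22, and 2.92 to 7.37 in WT cisplatin, with a median of 4.61. In HET the ratio was 1.63 to 4.09 under PBS, with a median of 1.85, and 2.31 to 10.6 under cisplatin, with a median of 3.94. The groups overlapped in both genotypes and the ratio was not tested. Against the sum of mRNAs mt-Rnr2 rose in WT by 1.23 on the log2 scale (SE 0.36, edgeR adjusted p = 0.00168) and was at 0.47 in HET (SE 0.37, edgeR adjusted p = 0.214), which without HET PBS 2 was 0.952 (edgeR adjusted p = 0.00933).

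The chromosome 1 copies were also fitted as rows of their own, apart from Gm28439, the copy of mt-Nd4, which held 0 counts. Gm28661 changed by −1.58 in WT (SE 0.10, edgeR adjusted p = 1.55e-14) and Gm28437 by −1.76 (SE 0.13, edgeR adjusted p = 7.29e-13). Gm10222 changed by −2.01 (SE 0.17, edgeR adjusted p = 5.37e-12), Gm10925 by −1.40 (SE 0.16, edgeR adjusted p = 3.81e-09) and Gm28438 by −1.77 (SE 0.47, edgeR adjusted p = 0.00144), against −2.19, −1.81 and −2.30 for the mt-Nd4l, mt-Atp6 and mt-Nd3 rows. Gm29216, which matches the end of mt-Co1, was at −0.0031 (SE 0.37, edgeR adjusted p = 0.995) in WT and 0.013 (SE 0.39, edgeR adjusted p = 0.98) in HET. Whether these differ from the changes of the mitochondrial rows was not tested.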
